A study of Homo sapiens with 4 samples.

Results

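A set of 45 genes of the actin cytoskeleton and the contractile machinery was examined in human breast epithelial cells. Cells carrying an shRNA against the kinase PAK1 were compared with control cells. The 45 genes were listed by name for what their proteins do, and every spot on the arrays that was not a control spot and carried 1 of these names was taken. This gave 67 probes on 103 spots, out of 27193 gene names, 34127 probes and 43118 spots. The arrays were 4 one-colour Agilent arrays on 1 slide, 2 for each group.

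Both groups were MCF10A.B2 cells, the non-transformed mammary epithelial line MCF10A carrying a form of Her2 (ErbB2) that a chemical can switch on. The first group, control #1 and #2, is labelled as control and as wild type for Pak1, and the methods name wild type cells of the line without mention of an shRNA. The second group, shRNA Pak1 #1 and #2, carried a Tet-inducible shRNA against PAK1. All cells had been grown in DMEM/F12 with 5% horse serum, kept without serum for 3 h and given the crosslinker AP1510 for 15 min to activate Her2, so these arrays hold no cells at rest. There was no array of a non-targeting shRNA. The series text speaks of tumor derived cells while the sample labels and the methods name the cell line, and neither says whether the arrays of a group came from separate cultures. The p-values therefore measure the spread between these arrays, which may be technical.

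Actin filaments are built from actin monomers, which profilin delivers and which the cofilin family and gelsolin release. The Arp2/3 complex, switched on by WAVE proteins, makes branched networks that push the cell edge forward. Tropomyosins coat unbranched filaments, and myosin II pulls on them once myosin light chain kinase has phosphorylated its light chains, while alpha-actinin, vinculin, talin and zyxin tie the filaments to sites of adhesion and ezrin, radixin and moesin tie them to the membrane. PAK1 works downstream of Rac and Cdc42 and acts on this machinery through LIM kinase, cofilin and myosin light chain phosphorylation. Many of these genes are themselves targets of the factor SRF and its MRTF partners, which sense the pool of free actin.

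The target of the shRNA was lower in the shRNA cells. The PAK1 probe read 11.19 and 11.27 in control cells and 10.44 and 10.52 in PAK1 shRNA cells (normalized log2 intensity, the scale of all levels below). Both shRNA arrays were below both control arrays, and PAK1 fell to 59.5% of the control level (log2 difference -0.75, SE 0.08, adjusted p = 0.000182 in limma). Ordered from the largest rise to the largest fall, PAK1 stood at place 18887 of the 21999 genes tested. Log2 differences are the mean of the shRNA arrays minus the mean of the control arrays, with n = 2 arrays in each group, and a gene was called changed at a Benjamini-Hochberg adjusted p under 0.05 over all 21999 genes tested. An exact permutation test of 2 arrays against 2 cannot give a p under 0.05, so calls rest on limma, which borrows the spread across genes.

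Of the 45 genes, 43 could be tested, and all 43 were well above background on all 4 arrays. CNN1, the smooth muscle calponin, was well above background on no array, and FLNC, the muscle filamin, on 1 array. Among the 43 genes 17 rose and 15 fell, while 11 did not pass the threshold. Changed genes were common on these arrays as a whole, where 62.9% of all tested genes passed, 31% upward and 31.9% downward, so the shares of 39.5% upward and 34.9% downward among the actin genes have to be read against that background. The changes of the 43 genes ran from -1.74 to 2.11, with a median of -0.08 beside 0.02 over all genes and a median size regardless of sign of 0.55 beside 0.38. The sign of the median turned with the normalization, to 0.10 when signals were scaled to their 75th percentile and 0.18 with cyclic loess, and under cyclic loess the split was 21 higher and 12 lower. At least 2-fold changes were seen in 4 genes upward (9.3%) and 4 downward (9.3%), against 8.85% and 8.96% of all genes. In 39 of the 43 genes (90.7%) the arrays of the groups did not overlap, against 81.8% of all genes. The actin genes were brighter than most, with a median level of 13.35 beside 9.48, and the background correction compresses changes of dim probes. Sizes and shares are therefore not compared like with like, and genes of matched level were not examined. The 4 genes whose arrays overlapped were MYH9, MYL12B, FLNA and CNN2. In RNA from whole cultures, fewer cells of a type and less RNA per cell cannot be told apart.

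**Figure D1:**
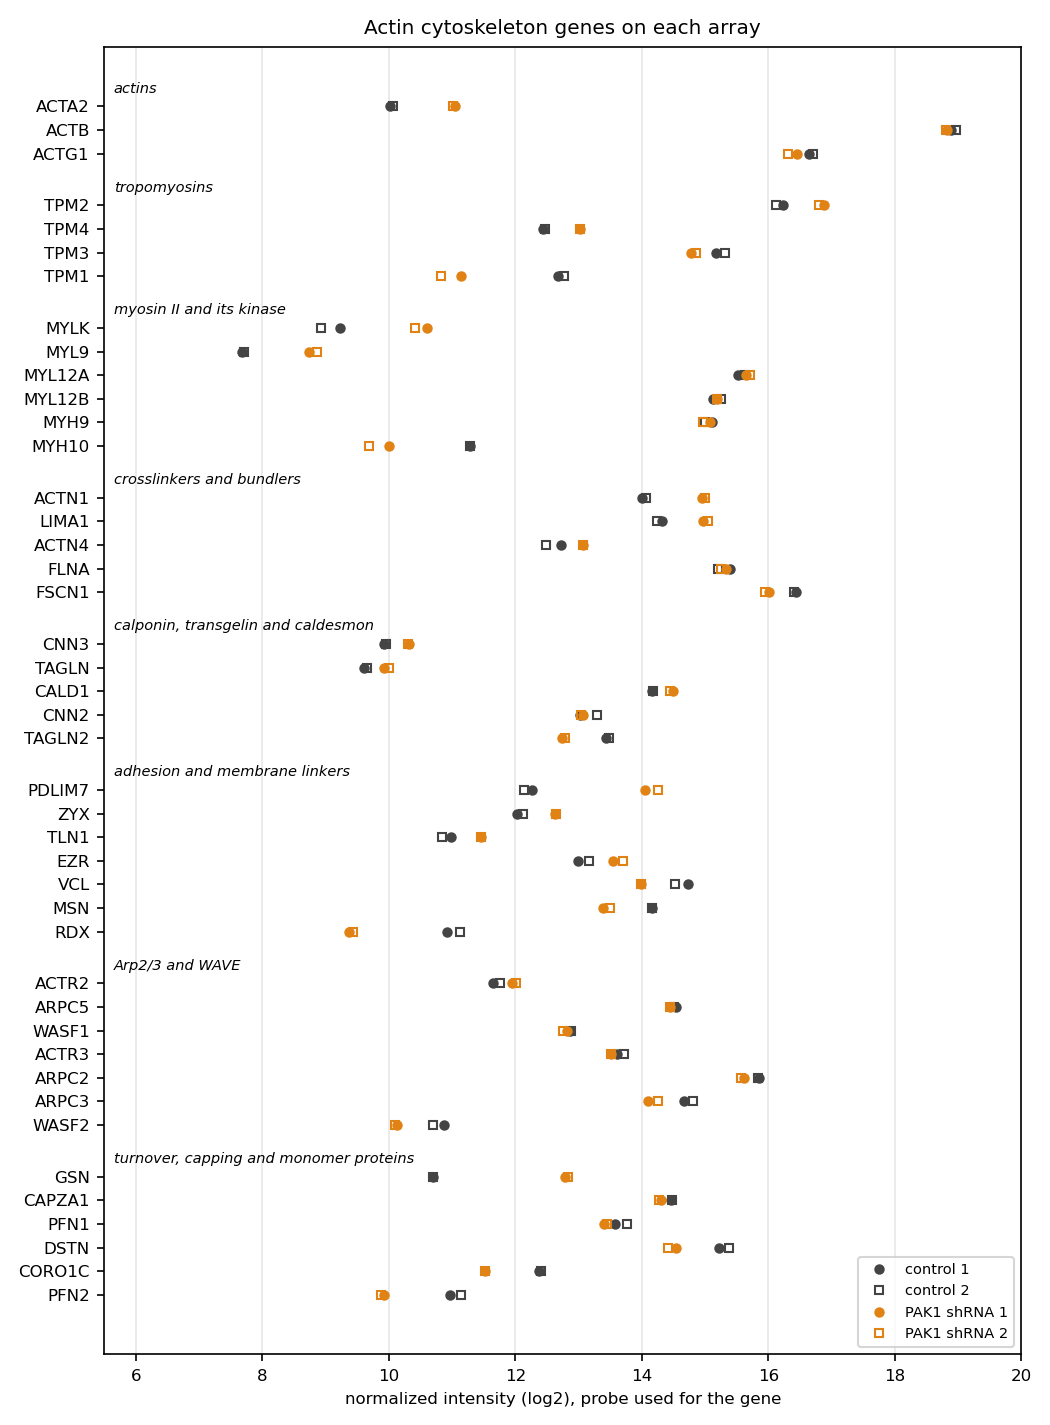
Normalized log2 intensity (x axis) of the 43 tested actin genes on each of the 4 arrays, grouped by role. Filled circles are the #1 arrays and open squares the #2 arrays of each group, black for control and orange for PAK1 shRNA. The shRNA arrays of GSN and PDLIM7 lie to the right of the control arrays and those of TPM1 and RDX to the left, while the 4 arrays of MYL12B lie together. Levels of different genes come from different probes and are not comparable.

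**Figure D2:**
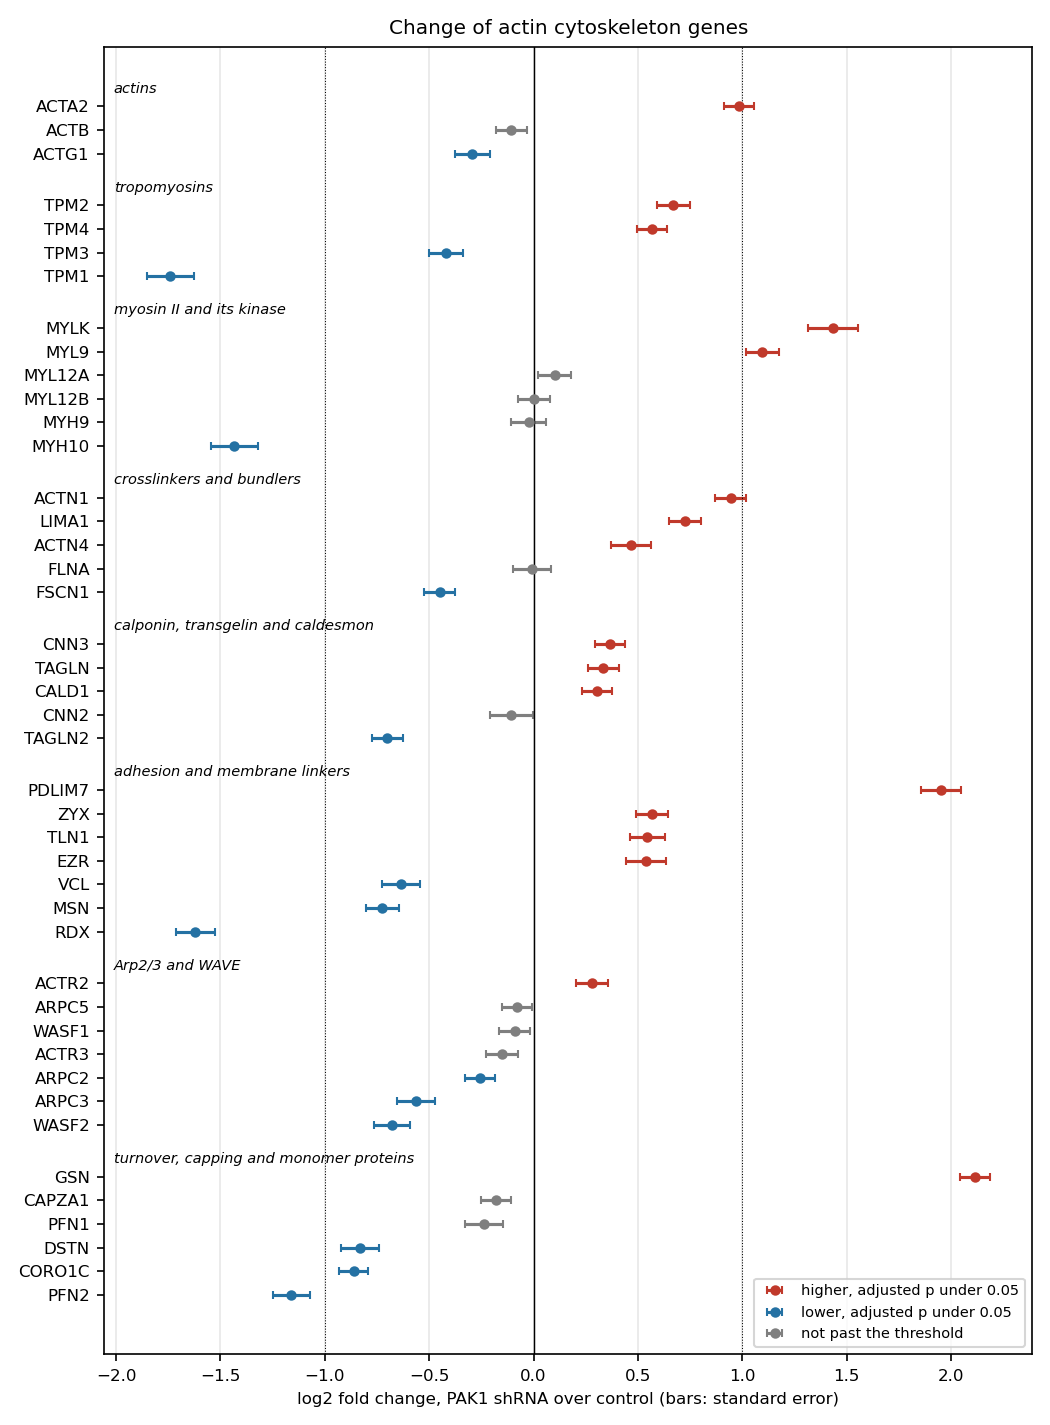
Log2 difference of each tested gene, PAK1 shRNA minus control (x axis, bars are standard errors, n = 2 arrays per group), grouped by role. Dotted lines mark a 2-fold change. Red marks the 17 genes called higher, blue the 15 called lower and grey the 11 that did not pass. Every role holds both a gene called higher and a gene called lower.

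The promoters of some of these genes hold a CArG box, the site that SRF binds, with the bases CC and GG on either side of a run of A and T. RefSeq promoter windows (build GRCh38.p14, 250 bases before to 50 after each start) were found for 39 of the 45 genes, 70 windows in all since several genes have more than 1 start. A CArG box was present in 6 of the 70 windows (8.57%), against 454 of 35116 windows of all genes (1.29%). The 6 windows belong to 6 genes and are shown as 60 bases in the direction of transcription with the CArG box in capitals, because they hold the site itself. No window was found for ACTB, MYL9, TAGLN, WASF2, FSCN1 and PFN2, which were not searched.
MYLK: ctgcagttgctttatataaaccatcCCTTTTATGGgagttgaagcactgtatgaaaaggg
ACTN1: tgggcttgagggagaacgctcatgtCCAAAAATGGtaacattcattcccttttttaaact
TPM4: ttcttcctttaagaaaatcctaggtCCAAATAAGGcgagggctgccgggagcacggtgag
ACTG1: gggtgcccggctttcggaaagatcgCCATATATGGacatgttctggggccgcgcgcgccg
CNN2: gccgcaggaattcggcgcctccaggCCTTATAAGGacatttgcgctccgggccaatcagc
FLNA: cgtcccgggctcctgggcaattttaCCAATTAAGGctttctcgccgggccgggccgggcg
These windows lie at chr3:123620608-123620667 (minus strand) for MYLK, chr14:68977703-68977762 (minus strand) for ACTN1, chr19:16067340-16067399 (plus strand) for TPM4, chr17:81512859-81512918 (minus strand) for ACTG1, chr19:1026494-1026553 (plus strand) for CNN2 and chrX:154374694-154374753 (minus strand) for FLNA. Seen from the RefSeq start of its window, the box began 94 bases upstream in MYLK, ACTG1 and FLNA, 89 in CNN2, 171 in ACTN1 and 173 in TPM4. Which transcript of a gene begins at that start was not analysed. The start in MYLK therefore need not be that of the full-length kinase. The genes that share the box did not share a direction. MYLK, ACTN1 and TPM4 rose, ACTG1 fell, and CNN2 and FLNA did not pass the test. A second motif, GGAATG on either strand, which TEAD factors bind, was present in 13 of the 70 windows (18.6%) and in 14% of all windows. Its windows belonged to 12 genes, of which 6 rose, 2 fell, 3 did not pass and 1 was not tested. A match is a description of these windows and does not show binding.

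The 3 actins each behaved differently. ACTA2, the smooth muscle alpha-actin of stress fibres in contractile cells, read 10.01 and 10.06 in control cells and 11.04 and 11.01 in PAK1 shRNA cells. Its groups were clearly apart, and it rose 1.98-fold (log2 difference 0.99, SE 0.07, adjusted p = 4.24e-05). ACTG1, the cytoplasmic gamma-actin found in all cells, read 16.64 and 16.71 in control cells and 16.46 and 16.31 in shRNA cells. It fell to 81.6% of control (log2 difference -0.29, SE 0.08, adjusted p = 0.0206), a small change whose call was lost in 6 of 19 alternative analyses (1 of them, here and below, a 2-fold threshold), among them those without control #2 (-0.26, adjusted p = 0.0851) and without shRNA #2 (-0.22, adjusted p = 0.126). ACTB, the cytoplasmic beta-actin that is often used as a loading control, read 18.88 and 18.97 in control cells and 18.83 and 18.81 in shRNA cells with the probe used. This probe was saturated on both control arrays and on neither shRNA array, so its control readings are limited by the scanner and no fold is given (log2 difference -0.11, SE 0.08, adjusted p = 0.261). The direction of ACTB turned with the scaling, from -0.11 to 0.29 at the 75th percentile and 0.46 with cyclic loess (adjusted p = 0.00165).

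The other ACTB probe, printed on 10 spots and below saturation everywhere, went the other way. It read 14.13 and 14.27 in control cells and 14.86 and 14.85 in shRNA cells, a log2 difference of 0.65 (SE 0.08, 95% interval 0.46 to 0.84, adjusted p = 0.000334 over probes). The array's annotation assigns this probe to a further locus, LOC644936, so its signal may not come from ACTB alone. Because the probes differ, the start of each is shown (the first 30 of 60 bases, 5′ to 3′).
ACTB, probe used: aggcagccagggcttacctgtacactgact
ACTB, other probe: tttaaaaactggaacggtgaaggtgacagc
In the array's hg19 coordinates they lie at chr7:5566787-5566846 and chr7:5567181-5567240, both on the minus strand. Which exon or UTR these and the other probes lie in was not analysed here. No statement on the direction of ACTB holds for both probes.

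The tropomyosins split into pairs. TPM1, which makes several of the long isoforms of stress fibres, read 12.67 and 12.77 in control cells and 11.14 and 10.83 in shRNA cells. It had the largest fall of the 43 genes, to 29.9% of control (log2 difference -1.74, SE 0.11, adjusted p = 2.55e-05), and its 3 probes gave -1.66, -1.74 and -1.78. TPM3 fell to 74.7% of control with the probe used (log2 difference -0.42, SE 0.08, adjusted p = 0.00422), a call lost in 5 of the 19 alternatives, among them cyclic loess (-0.23, adjusted p = 0.0509) and the mean over probes (-0.12, adjusted p = 0.247). TPM2 and TPM4 rose instead, TPM2 by 0.67 on the log2 scale (SE 0.08, adjusted p = 0.00037) and TPM4 by 0.57 (SE 0.07, adjusted p = 0.000492). Both probes of TPM2 (0.67 and 0.71) and both of TPM4 (0.57 and 0.46) were called higher.

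TPM3 was the 1 gene whose probes were called in both directions. Of its 6 probes 3 fell, 2 did not pass and 1 rose. The probe used lies at chr1:154127780-154127824 (hg19, minus strand), read 15.17 and 15.31 in control cells and 14.78 and 14.86 in shRNA cells, and the interval of its change was -0.62 to -0.22. The rising probe lies at chr1:154134291-154134350 (minus strand) and read 9.24 and 8.85 in control cells and 9.75 and 10.15 in shRNA cells, a log2 difference of 0.91 (SE 0.17, 95% interval 0.51 to 1.30, adjusted p = 0.00245 over probes). Its arrays also differed more within each group than those of the other probe. The array's annotation lists 1 RefSeq transcript for the rising probe and 4 for each of the other 5. The first 30 bases of both are shown for this difference.
TPM3, probe used: tgttgatcttttaaagtttctttccctacc
TPM3, rising probe: gcaattcctaggaaactctgtgttctgtga

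Of the 6 genes for the chains of myosin II and their kinase 2 rose, 1 fell and 3 did not pass. MYLK, the kinase that phosphorylates the regulatory light chains and so starts contraction, read 9.22 and 8.93 in control cells and 10.60 and 10.42 in shRNA cells. The MYLK signal rose 2.7-fold (log2 difference 1.43, SE 0.12, adjusted p = 7.43e-05), and its other probe rose by 1.32. The array's annotation lists 4 RefSeq transcripts for each of these probes. Which of them rose, and whether each encodes the kinase, was not analysed. MYL9, the regulatory light chain typical of smooth muscle, read 7.68 and 7.71 in control cells and 8.73 and 8.85 in shRNA cells, a 2.14-fold rise (log2 difference 1.10, SE 0.08, adjusted p = 3.86e-05). The size of this rise depended on the processing. It was 0.69 with normexp on all spots and 1.45 when signals were scaled to their 75th percentile. The light chains found in most cells, MYL12A and MYL12B, did not pass the test, with 0.10 (95% interval -0.09 to 0.29) and 0.00 (-0.19 to 0.19). Under cyclic loess both were called higher (0.32, adjusted p = 0.0121, and 0.23, adjusted p = 0.0375).

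The heavy chains differed from each other. MYH10, the heavy chain of myosin IIB, read 11.29 and 11.28 in control cells and 10.01 and 9.69 in shRNA cells. The control arrays lay close together and the shRNA arrays were both far below them, and MYH10 fell to 37.0% of control (log2 difference -1.43, SE 0.11, adjusted p = 5.69e-05). MYH9, the heavy chain of myosin IIA, read 15.11 and 14.99 in control cells and 15.08 and 14.97 in shRNA cells with the probe used. These arrays overlapped, and the log2 difference was -0.02 with a 95% interval of -0.23 to 0.18. The other MYH9 probe read 9.94 and 9.95 in control cells and 9.41 and 9.26 in shRNA cells and was called lower (log2 difference -0.61, SE 0.08, adjusted p = 0.000563 over probes).

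Among the crosslinkers and bundlers 3 of the 5 tested genes rose and 1 fell. ACTN1, the alpha-actinin that spaces filaments in stress fibres and adhesions, read 14.00 and 14.06 in control cells and 14.95 and 15.00 in shRNA cells. It rose 1.92-fold (log2 difference 0.94, SE 0.07, adjusted p = 5.6e-05). LIMA1, also known as EPLIN, which bundles and stabilizes filaments, rose by 0.73 (SE 0.08, adjusted p = 0.000225), and ACTN4, the second non-muscle alpha-actinin, by 0.47 (SE 0.10, adjusted p = 0.0052). FSCN1, the fascin that bundles the filaments of filopodia, fell to 73.2% of control (log2 difference -0.45, SE 0.07, adjusted p = 0.00174). FLNA, the filamin that crosslinks filaments into a gel, gave -0.01 (95% interval -0.23 to 0.21) with the probe used, which was called higher under cyclic loess (0.25, adjusted p = 0.0488), and -0.38 (adjusted p = 0.0128 over probes) with its other probe. Of the calponin, transgelin and caldesmon genes, which bind along filaments beside tropomyosin, 3 of the 5 tested rose and 1 fell. CNN3 rose by 0.37, TAGLN by 0.34 and CALD1 by 0.30 (SE 0.07 to 0.08, adjusted p = 0.00403, 0.00761 and 0.00957), each between 1.23-fold and 1.29-fold. Without shRNA #2 TAGLN no longer passed (0.29, adjusted p = 0.0528), nor did CALD1 without shRNA #1 (0.28, adjusted p = 0.0579). TAGLN2, the transgelin of non-muscle cells, fell to 61.5% of control (log2 difference -0.70, SE 0.07, adjusted p = 0.000212). CNN2 gave -0.11 with overlapping arrays (95% interval -0.35 to 0.14). The readings of CNN1, 6.17 and 6.11 in control cells and 6.26 and 6.40 in shRNA cells, and those of FLNC, 6.26 and 6.33 against 6.16 and 6.19, were at background.

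ACTA2, MYL9, MYLK and TAGLN, which rose, are genes that smooth muscle and myoepithelial cells use most, but the smooth muscle calponin CNN1 was at background and TPM1, which those cells use as well, fell. Other markers of those cells were listed beside them. Of 6 markers outside the 45 genes 5 could be tested, and SMTN (0.35) and DES (0.51) rose, OXTR fell (-0.89) and MYH11 (-0.03) and MYOCD (0.05) did not pass, while LMOD1 was well above background on no array. The summed level of the 5 markers was 11.90 and 11.77 in control cells and 12.13 and 12.18 in shRNA cells. The part of these markers in the rises was not tested.

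All 7 genes that tie filaments to adhesions and to the membrane were called, 4 higher and 3 lower, where 62.9% of all tested genes were called. PDLIM7, a PDZ and LIM domain protein of stress fibres also called enigma, read 12.26 and 12.14 in control cells and 14.05 and 14.25 in shRNA cells. It rose 3.87-fold (log2 difference 1.95, SE 0.10, adjusted p = 7.72e-06), while its other probes gave 1.31 and 1.06, so the size depends on the probe and the direction does not. ZYX, the zyxin that gathers at strained filaments, rose by 0.57 (SE 0.08, adjusted p = 0.000648) and TLN1, the talin that couples integrins to actin, by 0.55 (SE 0.08, adjusted p = 0.00118). VCL, the vinculin that reinforces the talin link, moved the other way and read 14.73 and 14.52 in control cells and 13.99 and 13.99 in shRNA cells. The vinculin level fell to 64.4% of control (log2 difference -0.64, SE 0.09, adjusted p = 0.000928).

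The ezrin, radixin and moesin genes, close relatives that join actin to the plasma membrane, did not move together. RDX read 10.92 and 11.13 in control cells and 9.37 and 9.44 in shRNA cells with the probe used. The groups were far apart and RDX fell to 32.5% of control (log2 difference -1.62, SE 0.09, adjusted p = 1.5e-05). The other RDX probe, for which the array lists no RefSeq transcript, gave -0.17 (95% interval -0.36 to 0.02). MSN fell to 60.6% of control (log2 difference -0.72, SE 0.08, adjusted p = 0.000223), whereas EZR, the main member in epithelial cells, rose 1.45-fold (log2 difference 0.54, SE 0.10, adjusted p = 0.00245).

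Changes in the Arp2/3 and WAVE genes were small. Of the 7 genes 1 rose, 3 fell and 3 did not pass, and none changed 2-fold. WASF2, the WAVE protein found in most cells, fell to 62.6% of control (log2 difference -0.68, SE 0.09, adjusted p = 0.000514) and the Arp2/3 subunit ARPC3 to 67.7% (log2 difference -0.56, SE 0.09, adjusted p = 0.00154). ARPC2 fell by 0.26 and ACTR2 rose by 0.28 (adjusted p = 0.0188 and 0.0185), and these calls were lost in 7 and 5 of the 19 alternatives. ARPC2 lost its call whichever array was left out (-0.28 to -0.23, adjusted p = 0.0509 to 0.099), and ACTR2 without control #1 (0.23, adjusted p = 0.0745) or shRNA #2 (0.25, adjusted p = 0.0974). WASF1, whose protein WAVE1 is best known from neurons, read 12.86 and 12.88 in control cells and 12.82 and 12.75 in shRNA cells. Its arrays did not overlap but the difference of -0.09 did not pass (SE 0.07, adjusted p = 0.328). ARPC5 and ACTR3 did not pass either, with -0.08 and -0.15 (adjusted p = 0.361 and 0.134).

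The genes for filament turnover, capping and monomer supply held the largest rise of the list. GSN, the gelsolin that severs and caps filaments in the presence of calcium, read 10.70 and 10.69 in control cells and 12.78 and 12.83 in shRNA cells. It rose 4.33-fold (log2 difference 2.11, SE 0.07, adjusted p = 1.91e-06), and its other probe rose by 2.28. The other called genes of this role fell. PFN2, the profilin most abundant in the brain, read 10.97 and 11.14 in control cells and 9.92 and 9.87 in shRNA cells, and fell to 44.8% of control (log2 difference -1.16, SE 0.09, adjusted p = 4.66e-05). CORO1C, a coronin that takes part in removing branches, read 12.37 and 12.41 in control cells and 11.52 and 11.53 in shRNA cells, and fell to 55.0% (log2 difference -0.86, SE 0.07, adjusted p = 7.2e-05). DSTN, the destrin of the cofilin family that disassembles filaments, read 15.22 and 15.38 in control cells and 14.53 and 14.41 in shRNA cells, and fell to 56.2% (log2 difference -0.83, SE 0.09, adjusted p = 0.000243). The shRNA arrays of these 3 genes lay below both control arrays. PFN1, the profilin found in all cells, and CAPZA1, a subunit of capping protein, were lower on both shRNA arrays but did not pass (-0.24, adjusted p = 0.0548, and -0.18, adjusted p = 0.0671). PFN1 passed without control #1 (-0.33, adjusted p = 0.0235), with normexp on all spots (0.0399), with the replicate block (0.0417) and with the mean over probes (0.0498). CAPZA1 passed with normexp on all spots (0.0242) and in the methods' t-test (0.0334).

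Several genes were measured by more than 1 probe. Of the 16 such genes 7 had every probe called in the same direction, which were GSN, PDLIM7, MYLK, TPM1, TPM2, TPM4 and TAGLN. In 4 genes, MYL12B, ARPC5, WASF1 and CAPZA1, no probe was called. In the other 5 some probes were called and others were not, namely ACTB, TPM3, MYH9, FLNA and RDX, so that the result for these genes depends on the probe. Over all probes 63.8% were called. The remaining 29 genes had a single probe and no such check.

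The intensities of these genes were high, with a median level of 13.35 over the 43 genes beside 9.48 over all genes tested. Ways of normalizing that differ for bright probes therefore bear on this list. The saturated ACTB probe lies at the top of the range and is the only probe of these genes that was saturated on every array of a group.

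**Figure D3:**
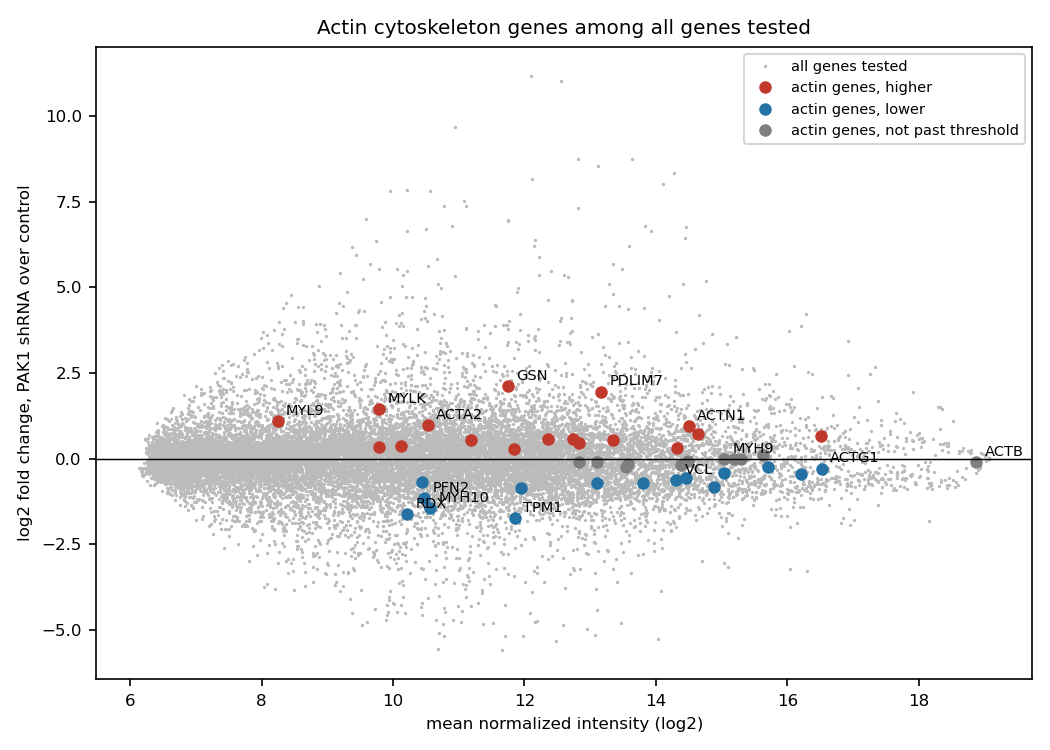
Log2 difference, PAK1 shRNA minus control (y axis), against the mean normalized log2 intensity over the 4 arrays (x axis) for all 21999 genes tested (light grey) and the 43 actin genes (large points, red higher, blue lower, dark grey not past the threshold). The actin genes lie mostly to the right, at a median of 13.35, and their changes stay between -1.74 and 2.11 while those of all genes reach from -5.59 to 11.2.

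Outside the 45 genes, wider lists of the same machinery also held changes in both directions. Of 9 other actin and myosin genes tested 4 rose and 1 fell. ACTG2, the enteric smooth muscle gamma-actin, read 7.22 and 7.27 in control cells and 8.75 and 9.02 in shRNA cells (log2 difference 1.64, SE 0.10), and the light chain gene MYL5 rose by 0.86. ACTL6A, an actin-related protein of chromatin remodelling complexes rather than of filaments, fell (-1.48). Of 19 other genes of the Arp2/3 and WAVE machinery 5 rose and 7 fell, with the largest rises in CTTNBP2NL (0.98) and CTTN (0.71), the cortactin that stabilizes branches, and the largest falls in the WAVE complex genes ABI2 (-0.83) and CYFIP2 (-0.71). Of 18 other tested genes for capping, severing and monomer binding 6 rose and 6 fell. The gelsolin relative AVIL (1.10) and CAP2 (0.70) rose most, and CFL2, the muscle cofilin, (-1.66) and SVIL (-0.86) fell most.

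Some other bundling proteins had larger changes than the 45 genes. Of 14 other bundlers and crosslinkers 6 rose and 6 fell. LCP1, the plastin of blood cells, rose by 2.30 and the spectrin SPTBN1 by 1.72, while ANLN, the anillin of the cytokinetic ring, fell by 3.21 and ESPN by 1.02. Of 25 other focal adhesion genes 9 rose and 6 fell, led by FERMT2 (1.38) and ILK (1.09), partners at integrin tails, and by PDLIM4 (-1.88) and EVL (-0.94).

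The SRF pathway itself was examined through SRF, its partners MRTFA, MRTFB, MYOCD and ELK1, and genes listed as targets outside the cytoskeleton. Of this list 13 genes could be tested, 2 rose and 6 fell. Whether the listed targets depend on SRF in these cells was not tested. CYR61 (0.68) and JUNB (0.30) rose, and SRXN1 (-2.05) and FHL2 (-1.54) fell most. SRF and its MRTF partners were singled out after their values were seen. SRF averaged 8.86 ± 0.19 in control cells and 8.48 ± 0.01 in shRNA cells (SD, n = 2), a log2 difference of -0.38 (SE 0.10, adjusted p = 0.0175). MRTFB, listed on the array as MKL2, fell to 41.7% of control (log2 difference -1.26, SE 0.09, adjusted p = 4.39e-05). MRTFA, listed as MKL1, gave -0.01 with overlapping arrays (95% interval -0.20 to 0.18). All wider lists were set against the same background of 31% of genes called higher and 31.9% called lower.

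Markers of cell types were read on the same arrays. All 10 basal mammary markers were well above background on all 4 arrays, and 4 of them rose and 4 fell. Of 8 fibroblast markers 5 could be tested, 4 rose and 1 fell, and the summed level moved from 12.46 and 12.27 in control cells to 13.79 and 13.78 in shRNA cells, while COL1A2, COL3A1 and THY1 were well above background on no array. Of 6 leukocyte markers 3 rose, CD68 most (3.75), and the summed level moved from 14.31 and 14.24 to 15.64 and 15.80, while the pan-leukocyte marker PTPRC did not pass (0.13). Luminal markers gave 1 rise and 2 falls and endothelial markers 1 rise and 2 falls among 5 tested in each list. Over all tested genes 31% were called higher and 31.9% lower, so some calls would be found in any list of this size. The part of these markers in the changes of the actin genes, LCP1 among the wider lists included, was not tested. From 78.9% to 83.2% of probes were well above background on an array and 23 to 44 spots were saturated. The control arrays lay at slide positions 1 and 2 and the shRNA arrays at 3 and 4, so that position and group cannot be told apart.

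**Figure D4:**
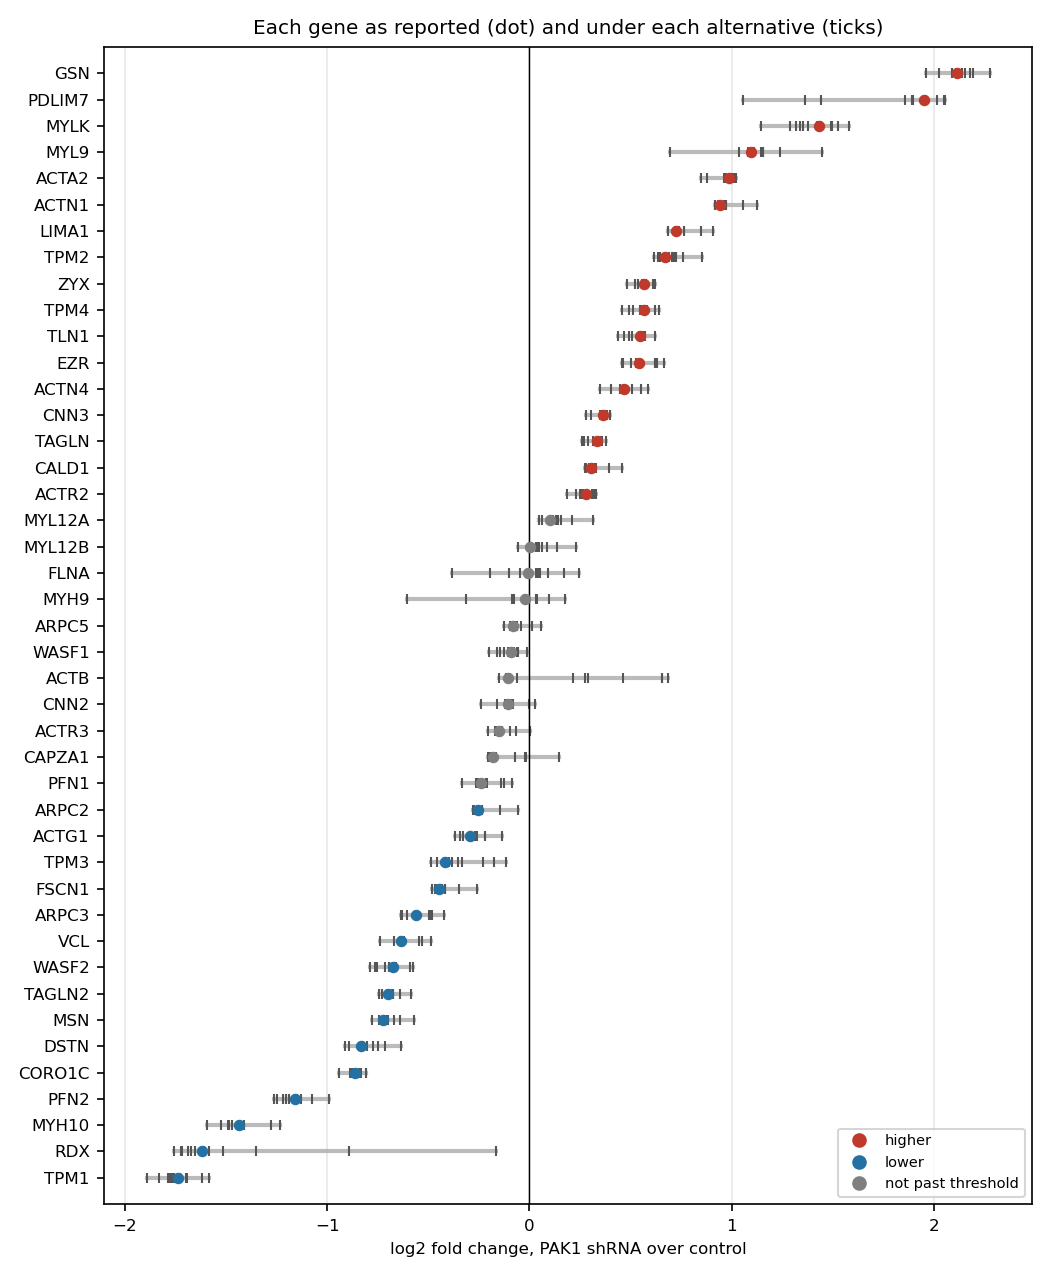
Log2 difference of each of the 43 actin genes as reported (coloured point, red higher, blue lower, grey not past the threshold) and under each of the 19 alternative analyses (ticks on a grey bar spanning them), with 0 as a black line. GSN stays between 1.96 and 2.28 and TPM1 between -1.89 and -1.59, while RDX reaches -0.17 with its other probe and ACTB spans both sides of 0.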

How the data were processed

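Total RNA was labelled with Cy3 and hybridised to 4 arrays of 1 slide, and per the labels and the file headers the deposited spot intensities came from Feature Extraction 9.5.3.1 (9.5 in the submitters' processing notes). The flags for background, saturation and signal well above background were also taken as deposited. A table of the authors' processed log2 intensity values, deposited for 24302 probes with medians of 9.40 to 9.42, matched its own scanner file (r of at least 0.999 on each array) and served as an alternative.

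Mean intensities were corrected with normexp (offset 50) in limma 3.58.1 (R 4.3.3). The normexp parameters were fitted without spots of irregular background (522 to 651 spots per array), since with all spots the fitted background was -666 and -740 on the control arrays but -10.7 and -10.2 on the others. Values were then quantile normalized and spots of 1 probe averaged. A probe was kept if either group had it well above background on both of its arrays, and a gene took the brightest of its probes. The offset compresses changes of dim probes. limma's moderated test was run over 21999 genes. The number of arrays limits the precision. The actin genes and all lists were chosen with earlier results of these data known. Array values are given for the 6 largest rises and falls and for ACTB, ACTG1, ACTA2, MYH9, MYL9, MYLK, TPM1, VCL and WASF1. In each wider list the 2 largest called rises and falls are named. The test was also tried on simulated data built from the means and spreads of these arrays, with 200 of 21999 genes changed. It called 100% of the changes of 1 on the log2 scale and 87% of those of 0.5. The share of changed genes there was far below the 62.9% called in the real data. The alternatives were normexp on all spots, another offset, 3 other normalizations, the authors' values, filters on dim and irregular spots, other rules for probes, a replicate block, a plain t-test, a 2-fold threshold and leaving out each array. Protein sequences were not used here, and 1 wider list is not reported here.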

Additional observations from a re-analysis of the deposited data

How the results depend on the processing

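Of 817 values of single actin genes under an alternative, 731 kept direction and call, 50 lost the call, 12 gained it and 24 changed sign, and 21 of the 32 called genes kept both under every alternative other than the 2-fold threshold. The exceptions were mostly small changes: ACTG1, ARPC2, ACTR2, TPM3 and, under single alternatives, ACTN4, ARPC3, EZR, VCL, CALD1, TAGLN and RDX (-0.17 with the probe of lowest mean). The median of the actin genes, -0.08 as reported, turned to 0.10 when the processed signal was scaled to its 75th percentile and 0.18 with cyclic loess, and moved to -0.0161 with median centring, to -0.0228 with the authors' values and to -0.023 without saturated probes, an alternative chosen after seeing the data. Over all genes the median difference rose from 0.02 to 0.12 at the 75th percentile and 0.14 with median centring. Single genes changed sign at the 75th percentile (ACTB 0.29, ARPC5 0.0141, FLNA 0.17, MYH9 0.10), with cyclic loess (ACTB 0.46, ACTR3 0.0049, ARPC5 0.0578, FLNA 0.25, MYH9 0.18), with median centring (ACTB 0.21, FLNA 0.0507), with the authors' values (ACTB 0.69, FLNA 0.04), with the mean over probes (ACTB 0.27), with the probe of lowest mean (ACTB 0.65, CAPZA1 0.15) and without saturated probes (ACTB 0.65). FLNA was called higher with cyclic loess (adjusted p = 0.0488). ACTB was called higher with cyclic loess (adjusted p = 0.00165), the authors' values (0.000379) and the mean over probes (0.0172), and where its other probe stood for it (0.000322 and 0.000331). The cause was not tested, except that the probe rules and the saturation filter replace the saturated ACTB probe by construction. With the authors' values ACTB (0.69) also lay near its other probe (0.65). Which ACTB probe those values hold was not examined, so that reversal need not come from the processing.

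Requiring a 2-fold change left 4 actin genes higher and 4 lower, and 1947 and 1971 of all genes. A plain unpaired t-test was also run, which the methods name for the statistics in general, while they name limma's moderated test for the arrays. It called 12116 genes at an unadjusted p under 0.05 and 9134 after Benjamini-Hochberg (4370 higher), with 32 and 26 actin genes. Leaving out 1 array at a time gave 15 to 17 actin genes higher and 13 to 15 lower, a median of -0.08 to -0.05, and 5757 to 6400 genes higher and 6037 to 6563 lower. It turned the sign of genes near 0: FLNA (-0.103 to 0.0917), MYH9 (-0.084 to 0.038), MYL12B (-0.0587 to 0.0641) and CNN2 (-0.239 to 0.0258). The replicate numbers did not pair the arrays (r = 0.0102 between deviations of same-numbered arrays over 21999 genes). With the replicate block 17 actin genes were higher and 16 lower, and 6973 and 7069 of all genes. All arrays shared 1 slide, so no slide block could be fitted. Probes below background and saturated probes give bounds only.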
